A study of Homo sapiens with 4 samples.

Results

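The genes described here are the replication-dependent histone genes, which supply the histone proteins that package newly copied DNA. They were chosen by symbol as the protein-coding genes named H1-1 to H1-6, H2AC, H2BC, H3C or H4C plus a number in the RefSeq annotation of GRCh38. The rule gave 69 genes of 19974 protein-coding genes on chromosomes 1 to 22 and X. They comprised 6 H1, 17 H2A, 18 H2B, 13 H3 and 15 H4 genes. Of these, 55 lay on chromosome 6, 13 on chromosome 1 and 1 on chromosome 12. BRD8, a bromodomain protein of the TIP60/NuA4 complex, which acetylates histones, was mapped by chromatin immunoprecipitation sequencing (ChIP-seq) in HCT116 and SW480. Both are established human colorectal cancer lines, for which the labels name no treatment. The cells were fixed in formaldehyde, and their chromatin was cut with micrococcal nuclease. Each line gave 1 BRD8 ChIP library and 1 input library, so differences between HCT116 and SW480 have no replicate behind them. The BRD8 peaks called in each line are described. They measure protein on DNA and hold no expression values, so the cell type named by the labels could not be checked against marker genes.

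Replication-dependent histone genes are transcribed as cells copy their DNA, and their messenger RNAs end in a stem-loop that the protein SLBP binds in place of a poly(A) tail. The genes lie in clusters, in which H2A and H2B genes often stand head to head around a shared promoter. Transcription and RNA processing take place in the histone locus body, a nuclear structure organised by the coactivator NPAT. TIP60/NuA4 acetylates histones H4 and H2A, so its subunit BRD8 is mapped here at the genes that encode the complex's own substrates.

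Promoters of 3 types with the strongest HCT116 peaks are shown beside promoters of the same type at genes with no peak in either line. They let the peak positions given further on be read against the sequence. Each is the 250 bases before the annotated start, from RefSeq on GRCh38.p14, written 5′ to 3′ on the strand of the gene. Capitals mark 4 motifs, searched on both strands. They are the octamer, spelled ATTTGCAT, and a TATA box, spelled TATAAA. The others are the NF-Y site, CCAAT, and a motif of H4 promoters, written GGTCC. TTTGGCGC and CACGTG were searched too and occurred in none of the 64 histone genes with a promoter in the table. Over all protein-coding genes with such a promoter the shares were 0.917% for TTTGGCGC and 9.73% for CACGTG. Overlapping TATAAA matches run together in the H2BC12 promoter.
H2BC12 lies on the minus strand at chr6:27146856-27147105, and this window covers the whole space between H2BC12 and H2AC12.
H2BC12: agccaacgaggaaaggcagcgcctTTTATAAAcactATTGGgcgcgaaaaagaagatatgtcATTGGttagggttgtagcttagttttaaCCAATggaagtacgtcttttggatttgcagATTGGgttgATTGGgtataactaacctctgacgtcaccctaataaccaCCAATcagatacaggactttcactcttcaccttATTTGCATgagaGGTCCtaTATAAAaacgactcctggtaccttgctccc
H2BC18, with no peak, lies on the minus strand at chr1:149812371-149812620.
H2BC18: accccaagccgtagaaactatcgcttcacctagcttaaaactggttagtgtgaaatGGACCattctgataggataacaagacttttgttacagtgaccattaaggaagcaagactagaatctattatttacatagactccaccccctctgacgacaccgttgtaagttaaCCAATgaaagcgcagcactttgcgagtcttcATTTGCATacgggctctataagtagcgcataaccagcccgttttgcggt
H4C4 lies on the minus strand at chr6:26189113-26189362.
H4C4: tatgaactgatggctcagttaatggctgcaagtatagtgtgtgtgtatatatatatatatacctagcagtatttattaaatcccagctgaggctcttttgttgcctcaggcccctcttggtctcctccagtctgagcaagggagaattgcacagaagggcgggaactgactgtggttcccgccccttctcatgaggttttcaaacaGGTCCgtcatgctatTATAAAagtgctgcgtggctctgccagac
H4C14, with no peak, lies on the plus strand at chr1:149832407-149832656. Its promoter window is identical to that of H4C15, which has an HCT116 peak with its summit 17189 bp from the listed start.
H4C14: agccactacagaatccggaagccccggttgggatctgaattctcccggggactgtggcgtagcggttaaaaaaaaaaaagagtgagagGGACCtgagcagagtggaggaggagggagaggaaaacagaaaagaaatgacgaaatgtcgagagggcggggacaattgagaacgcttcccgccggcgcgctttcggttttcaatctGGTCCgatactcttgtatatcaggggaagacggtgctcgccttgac
H3C6 lies on the plus strand at chr6:26223928-26224177, before the one of its 2 listed starts that is nearest to its HCT116 summit.
H3C6: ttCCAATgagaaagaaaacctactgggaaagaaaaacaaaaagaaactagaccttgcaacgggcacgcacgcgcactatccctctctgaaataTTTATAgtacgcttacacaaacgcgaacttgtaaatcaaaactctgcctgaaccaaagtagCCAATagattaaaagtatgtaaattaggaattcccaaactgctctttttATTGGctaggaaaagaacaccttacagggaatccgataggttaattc
H3C13, with no peak, lies on the minus strand at chr1:149813694-149813943.
H3C13: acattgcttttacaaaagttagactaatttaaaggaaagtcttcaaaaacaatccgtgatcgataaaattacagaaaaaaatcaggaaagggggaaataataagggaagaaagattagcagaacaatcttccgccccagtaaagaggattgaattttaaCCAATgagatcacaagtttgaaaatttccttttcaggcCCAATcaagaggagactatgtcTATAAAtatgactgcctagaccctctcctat
The octamer is the binding site of POU2F1 and is known from H2B promoters. It was present in 14 of 18 H2B and 11 of 16 H2A genes, in 1 of 11 H3 genes, and in none of 13 H4 or 6 H1 genes. Over 15812 protein-coding genes with a promoter in the table the share was 2.16%. CCAAT, the NF-Y site, was present in every H1, H2A, H2B and H3 promoter searched, in 3 of 13 H4 promoters, and in 40.2% of all protein-coding genes. GGTCC was present in 12 of 13 H4 promoters and in 52.3% of all genes. TATAAA was present in 43 of the 64 histone genes and in 11.9% of all genes. TATAAA was present in 28 of 38 histone genes with a peak in either line and in 15 of 26 with none. The octamer was present in 16 of 38 and 10 of 26, CCAAT in 30 and 24, and GGTCC in 12 and 9. Among H2B genes the octamer was present in 7 of 11 with a peak and in 7 of 7 with none, and TATAAA in 9 of 11 and 3 of 7. These differences were not tested. H4C14 and H4C15 have the same promoter window but fall on opposite sides of the split by peak. A match describes these letters and does not show that a factor binds.

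A gene was counted as bound when the summit of a peak, its point of highest signal, lay within 1 kb of either end of the gene. In HCT116, 39 of the 69 histone genes (56.5%) were bound, against 44.0% of all protein-coding genes. In SW480, 24 histone genes (34.8%) were bound, against 22.1% of all protein-coding genes. Most histone genes are short, but H2BC18 spans 29682 bp, and H4C15, H2BC5, H2BC4, H2BC12, H3C6, H3C4 and H2BC21 also exceed 2 kb. Other protein-coding genes spanning at most 2 kb were bound less often, 15.5% in HCT116 and 5.72% in SW480. The histone set keeps its longer genes, and the sets were not matched for length or expression. The part of gene length in the difference was not tested. The gene counts rest on fewer separate peaks, because neighbours share them. HCT116 had 44 separate peaks, 14 of which served more than 1 histone gene. SW480 had 18 separate peaks, 8 of which served more than 1. A gene outside the family, pseudogenes included, lay within 1 kb of 5 of the HCT116 peaks and 4 of the SW480 peaks. Genes that share a peak are not independent, so no test across genes was made.

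The excess depended on the threshold and the window. With a −log10 q of at least 5, 30 histone genes (43.5%) were bound in HCT116, against 36.6% of all protein-coding genes. At the same threshold 9 histone genes (13.0%) were bound in SW480, against 14.5% of all genes, so the SW480 share was then at the background. With summits within 500 bp of a gene end the histone shares were 42.0% in HCT116 and 17.4% in SW480, against 34.9% and 17.0% of all protein-coding genes. With both lists held to the same number of peaks, 31 histone genes (44.9%) remained in the HCT116 set and 24 (34.8%) in the SW480 set, against 37.4% and 22.1% of all genes.

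**Figure D1:**
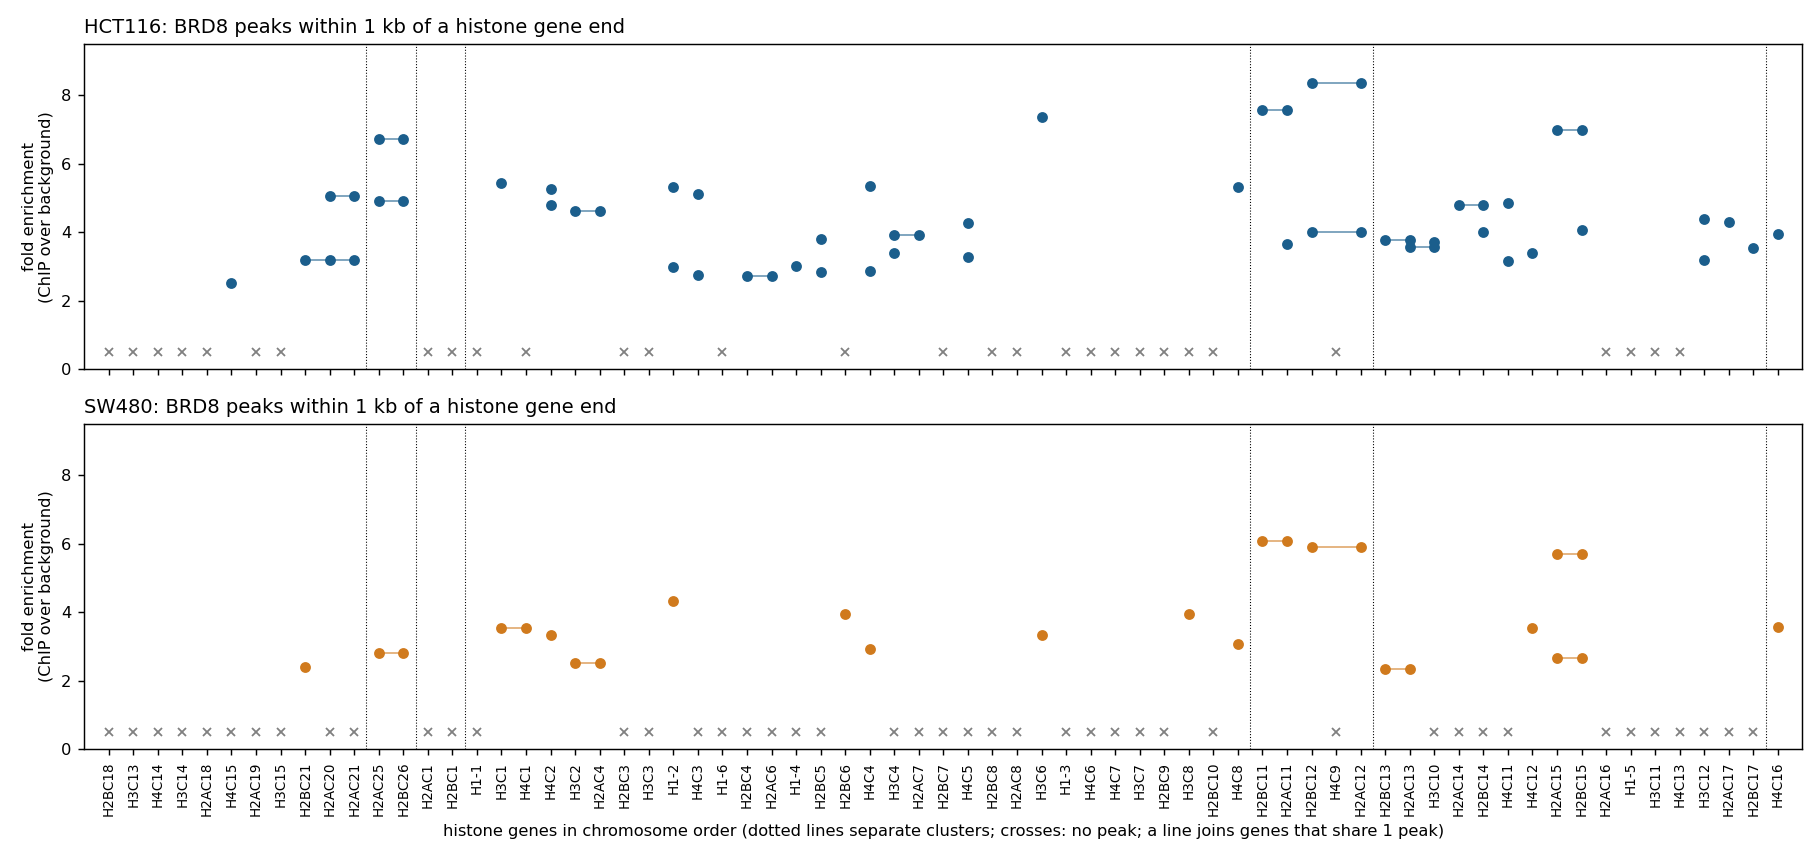
Fold enrichment of every BRD8 peak within 1 kb of a histone gene end (vertical axis, ChIP over local background) for the 69 genes in chromosome order, with HCT116 above SW480; crosses mark genes with no peak. The highest points of both lines lie at the H2BC11/H2AC11 and H2BC12/H2AC12 pairs of chromosome 6, and 27 genes have a cross in both panels.

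Histone peaks had folds near those of all gene-end peaks, with a lower median −log10 q in both lines. Fold enrichment, the authors' ratio of ChIP signal to local background at the summit, ran in HCT116 from 2.52 to 8.37 with a median of 4.003. In SW480 it ran from 2.34 to 6.08 with a median of 3.43. The median over all peaks at protein-coding gene ends was 4.43 in HCT116 and 3.25 in SW480. The strongest histone peak ranked 1892 of 22303 by −log10 q in HCT116 and 720 of 12874 in SW480. The fragment pileup at the summits, which sets the precision of these values, was 14 to 42 in HCT116 and 16 to 44 in SW480. Median width was 931.5 bp in HCT116 and 490.5 bp in SW480, against 925 and 508 bp over all peaks at protein-coding gene ends.

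Bound genes were also counted by cluster, against 44.0% of all protein-coding genes in HCT116 and 22.1% in SW480. The clusters hold few genes, which share peaks, so these counts do not rank them. On chromosome 6 the largest cluster, from 26.02 to 26.29 Mb, held 32 genes. In HCT116, 16 of them (50.0%) were bound through 20 separate peaks. In SW480, 11 of them (34.4%) were bound through 9 peaks. A compact cluster of 5 genes from 27.13 to 27.15 Mb had 4 bound genes in each line, through 4 HCT116 and 2 SW480 peaks. The third cluster, from 27.81 to 27.89 Mb, held 16 genes. Of these, 12 (75.0%) were bound in HCT116 through 14 peaks and 5 (31.2%) in SW480 through 4 peaks. The isolated pair H2AC1 and H2BC1 at 25.73 Mb, which encodes the testis forms of H2A and H2B, had no peak in either line. The nearest HCT116 summit to H2AC1 was 266152 bp away and the nearest SW480 summit 295243 bp. On chromosome 1, the cluster from 149.78 to 149.89 Mb had 4 of 11 genes (36.4%) bound in HCT116, through 3 peaks. In SW480 it had 1 (9.09%). The pair H2AC25 and H2BC26 at 228.46 Mb was bound in both lines, as was H4C16, the lone member on chromosome 12.

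Several genes of the chromosome 1 cluster have near-identical promoter windows. The promoter windows of H4C14 and H4C15 were identical over all 270 words of 31 bases. H2AC18 and H2AC19 shared 269 of those words and H3C14 and H3C15 shared 266. Of these 6 genes, H4C15 alone had a peak, in HCT116 at a fold of 2.52, and its summit lay beyond the lower end of the gene, 17189 bp from the listed start. Treatment of reads that align equally well at such copies is not stated in the labels, and its part in the peaks called there was not tested. H4C11 and H4C12 on chromosome 6 shared 164 words and both had peaks.

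**Figure D2:**
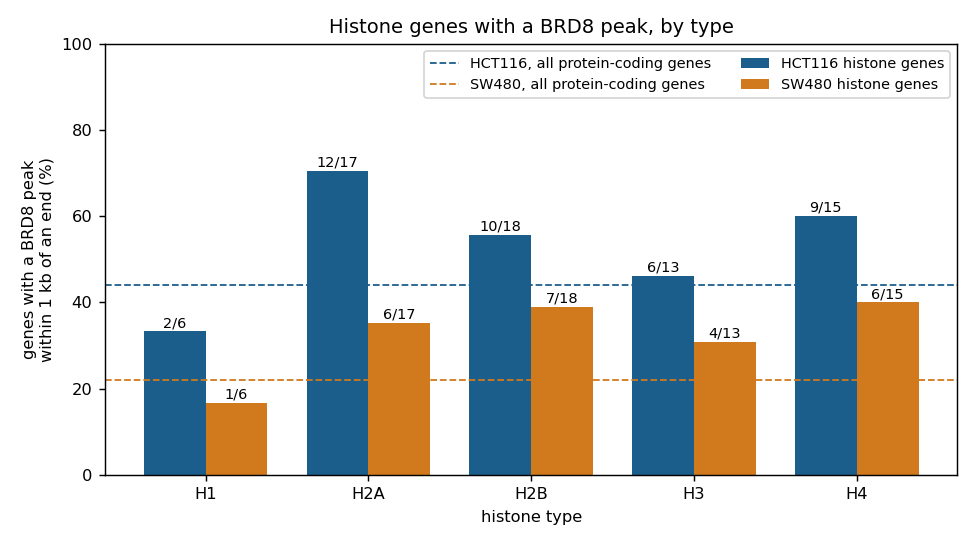
Percentage of histone genes of each type with a BRD8 peak within 1 kb of an end, with HCT116 bars left of SW480 bars and counts above them; dashed lines give the share of all protein-coding genes, 44.0% in HCT116 and 22.1% in SW480. The 17 H2A genes have the highest HCT116 bar, at 12 genes, and the 6 H1 genes the lowest in both lines.

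Among the core histones, H2A genes were bound most often in HCT116, at 12 of 17, through 16 separate peaks. H4 followed with 9 of 15 genes and 14 peaks, H2B with 10 of 18 genes and 15 peaks, and H3 with 6 of 13 genes and 9 peaks. In SW480 the counts were 6 of 15 H4, 7 of 18 H2B, 6 of 17 H2A and 4 of 13 H3 genes. A peak with its summit within 1 kb of both an H2A and an H2B gene counts for both types. For the 6 H1 linker histones the counts were 2 in HCT116 and 1 in SW480. Counts this small do not rank the types, and the H2B count in HCT116 was 4 when summits had to lie within 500 bp of a gene end.

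The highest fold of each line lay at a head-to-head H2A and H2B pair, but other pairs had low folds or no peak. There were 12 such pairs, with 193 to 247 bp between the genes. In HCT116, 10 pairs had a peak, and in 8 of them 1 peak lay within reach of both genes. In SW480, 6 pairs had a peak, and in 5 of them 1 peak lay within reach of both genes. The space between the genes held no base of a peak at 9 of those 10 pairs in HCT116. In SW480 it held none at all 6. The pair H2BC12 and H2AC12 had the highest HCT116 fold, 8.37, at a −log10 q of 23.7, against 5.90 and 11.8 in SW480. H2BC11 and H2AC11 had a fold of 7.59 in HCT116 and 6.08 in SW480, the highest SW480 value of the family. H2AC15 and H2BC15 had 6.98 in HCT116 and 5.68 in SW480. H2AC25 and H2BC26 had 6.73 in HCT116 and 2.81 in SW480, at different sites. The HCT116 peak that overlapped the SW480 one had a fold of 4.92. H2BC13 and H2AC13 were lower in both lines, at 3.77 in HCT116 and 2.34 in SW480. At H2AC20 and H2BC21, which share an HCT116 peak of fold 3.19, SW480 had a peak of fold 2.39 that reached H2BC21 only. It overlapped another HCT116 peak, of fold 5.05, whose summit lay over 1 kb from the gene ends. H2AC6 with H2BC4, H2AC14 with H2BC14 and H2AC17 with H2BC17 had a gene-end peak in HCT116 alone. For the first and last of these, SW480 summits lay just past the 1 kb limit, 1149 bp from H2BC4 and 1171 bp from H2BC17. The SW480 peak beside H2BC17 overlapped the HCT116 peak there and had a fold of 4.51, against 3.53 in HCT116. At H2AC7 and H2BC7 the HCT116 peak reached H2AC7 only. H2AC8 with H2BC8, like the testis pair, had none.

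Peaks at H3 and H4 genes were spread over the clusters. H3C6 had the highest value among them, a fold of 7.37 in HCT116 against 3.34 in SW480. H3C1 had 5.44 in HCT116 and 3.52 in SW480. H3C2, which shares its peak with H2AC4, had 4.61 in HCT116 and 2.53 in SW480. Among the H4 genes, H4C4 had 5.37 in HCT116 and 2.91 in SW480, H4C8 5.33 and 3.07, and H4C2 5.27 and 3.34 in the same order of lines. The H4C8 peak of each line also lay within 1 kb of a tRNA gene, TRX-CAT1-2, and cannot be assigned to either gene. At H4C12 the highest HCT116 fold, 3.39, was below the 3.54 of SW480, which was so at no other gene when the highest peaks were compared. H4C16 had 3.95 in HCT116 and 3.57 in SW480, from peaks on opposite sides of the gene that did not overlap. Both peaks also lay within 1 kb of another protein-coding gene, LOC105369669, and cannot be assigned to either gene. Among the linker histones, H1-2 had 5.31 in HCT116 and 4.34 in SW480, at different sites. The HCT116 peak that overlapped the SW480 one had a fold of 2.998, against 4.34, so the order of the lines was turned there.

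**Figure D3:**
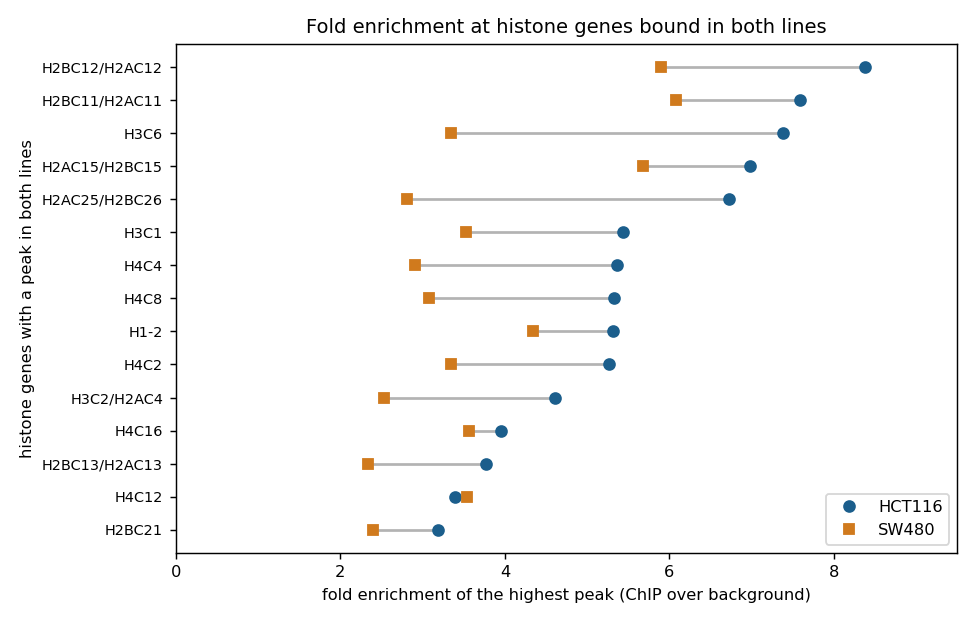
Fold enrichment of the highest gene-end peak (horizontal axis) in HCT116 (circles) and SW480 (squares) at the 21 histone genes bound in both lines; genes that share both peaks are drawn as 1 row. HCT116 lies to the right in every row except H4C12. At H1-2, H2AC25 with H2BC26, H2BC21 and H4C16 the symbols stand for peaks that do not overlap.

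Of the histone genes, 21 were bound in both lines, 18 in HCT116 alone, 3 in SW480 alone and 27 in neither. Those bound in both made up 53.8% of the HCT116 set and 87.5% of the SW480 set, against 46.1% and 91.8% for all protein-coding genes. Genes bound in HCT116 alone were 26.1% of the histone genes and 23.7% of all protein-coding genes, and those bound in SW480 alone 4.35% and 1.81%. Over all protein-coding genes 20.3% were bound in both lines, and of the other short ones 5.30%. The highest gene-end peaks of HCT116 and SW480 overlapped by at least 1 bp at 16 of the 21 genes (76.2%), against 90.4% of the 4053 protein-coding genes bound in both. The exceptions were H1-2, H2AC25, H2BC26, H2BC21 and H4C16. At H4C16 the SW480 peak overlapped no HCT116 peak at all. Of the 18 SW480 histone peaks, 15 (83.3%) overlapped an HCT116 peak, against 88.7% of all SW480 peaks at protein-coding gene ends. The 3 genes bound in SW480 alone were H2BC6 at a fold of 3.93, H3C8 at 3.95 and H4C1 at 3.52. The H4C1 peak is also that of H3C1 and overlapped an HCT116 peak, whose summit lay 1031 bp from H4C1. Among genes bound in HCT116 alone, H3C12 had the highest −log10 q, 11.8 (fold 4.39). It was followed by H4C3 at a −log10 q of 9.34 (fold 5.12), H4C5 at 9.05 (fold 4.26), H2AC20 with H2AC21 at 8.89 (fold 5.06, a shared peak), and H2BC17 at 8.67 (fold 3.53). Next came H2AC17 at 8.05 (fold 4.31), H2AC14 with H2BC14 at 7.98 (fold 4.79) and H4C11 at 7.79 (fold 4.85). At some of these genes a SW480 summit lay past the 1 kb limit but within 2 kb. It lay 1054 bp from H2AC20, 1605 bp from H2AC21, 1171 bp from H2BC17 and 1877 bp from H2AC17. Peaks below the q threshold are not listed, so a gene without one is not shown to be free of BRD8.

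At the 21 genes bound in both lines, the median fold of the highest gene-end peak was 5.37 in HCT116 against 3.34 in SW480. Genes that share both peaks, such as H2BC11 and H2AC11, each enter the medians and counts given here. The separate sites are thus fewer than the genes. Gene by gene, the HCT116 to SW480 ratio of folds had a median of 1.54 and ran from 0.958 to 2.39. Where the HCT116 peak was the one overlapping the SW480 peak, 20 genes could be compared. The median ratio was then 1.59, with a range from 0.692 to 2.21, and HCT116 was higher at 18 genes, the exceptions being H1-2 and H4C12. Over the 4053 protein-coding genes bound in both lines the median ratio was 1.79. The pileup and the local background can be recovered from fold and p. Median pileup at the 21 genes came to 33 fragments for HCT116, against 24 for SW480, and the median of the ratios gene by gene was 1.17. Their background had a median of 4.05 for HCT116, against 6.92 for SW480, but gene by gene the median ratio was 0.913. Over all protein-coding genes bound in both lines the median ratio was 1.12 for pileup and 0.585 for background. The SW480 background under histone peaks was low for a gene end. Its median over the 18 histone peaks was 5.13, against 10.5 over all SW480 peaks at protein-coding gene ends, and 5 histone peaks sat at the lowest background of the list, 4.09. In HCT116 the histone median was 5.11, against 5.93, and 8 of the 44 histone peaks sat at the lowest background of that list, 3.75. The share of all gene-end peaks at the lowest background was not counted.

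BRD8 peaks at histone genes lay beside the gene start rather than over it. Of the 36 bound HCT116 genes with a listed start, 6 (16.7%) had that start inside a peak region, against 69.2% of all bound protein-coding genes and 64.7% of the other short ones. At 20 genes (55.6%) the start lay in a gap between 2 peaks, with 1 peak region within 1 kb on each side. That pattern was found at 8.48% of all bound protein-coding genes and 10.5% of the other short ones. The 20 genes make up 14 separate gaps, 254 to 1073 bp wide with a median of 681 bp, because paired genes share a gap. Of the bound HCT116 histone genes, 51.3% had at least 2 gene-end peaks, against 19.6% of all bound protein-coding genes and 32.1% of the other short ones. They were H1-2, H2AC11, H2AC12, H2AC13, H2AC20, H2AC21, H2AC25, H2BC5, H2BC12, H2BC14, H2BC15, H2BC26, H3C4, H3C10, H3C12, H4C2, H4C3, H4C4, H4C5 and H4C11. In SW480 none of 22 starts lay inside a peak, against 35.2% of all bound genes and 25.5% of the other short ones. There 2 starts (9.09%), those of H2AC15 and H2BC15, lay between 2 peaks, against 12.3% of all bound genes. At least 2 gene-end peaks were found at 8.33% of the bound SW480 histone genes. That share was below the 18.9% of all bound genes and the 20.6% of the other short ones. The summit lay a median of 718 bp from the nearest listed start in HCT116 and 690 bp in SW480. The medians were 318 and 331 bp over all bound protein-coding genes, and 547 and 331 bp over the other short ones. Summits within 200 bp of a start made up 9.43% in HCT116 and none in SW480. The shares were 33.0% and 31.6% over all bound genes, and 26.5% and 26.1% over the other short ones. No start is listed for H4C1, H4C3, H2AC12, H3C11 and H3C12, which were left out of these counts.

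The far end of the gene was more often covered. In HCT116 the end opposite the start lay inside a peak at 25 of 36 genes (69.4%), against 25.5% of the other short genes. In SW480 it did at 5 of 22 (22.7%), against 12.7%. The other short genes span up to 2 kb and were not matched to the histone genes for length. The part of gene length in these shares was not tested. At H2BC12 the nearer HCT116 peak began at 313 bp and the other ended at -638 bp relative to the start. None of the 250 promoter bases printed above lay in a peak of either line. At H4C4 the HCT116 peaks lay from 72 to 1461 bp and from -957 to -208 bp relative to the start, and 43 bases of the printed promoter lay in a peak. H3C6 was an exception, with all 250 bases inside a HCT116 peak that ran from -764 to 803 bp relative to the start. H1-2, H2BC13, H3C4, H4C2 and H4C8 were the other genes with a start inside a HCT116 peak. Micrococcal nuclease cuts DNA that is free of nucleosomes, and its part in the uncovered starts was not tested.

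**Figure D4:**
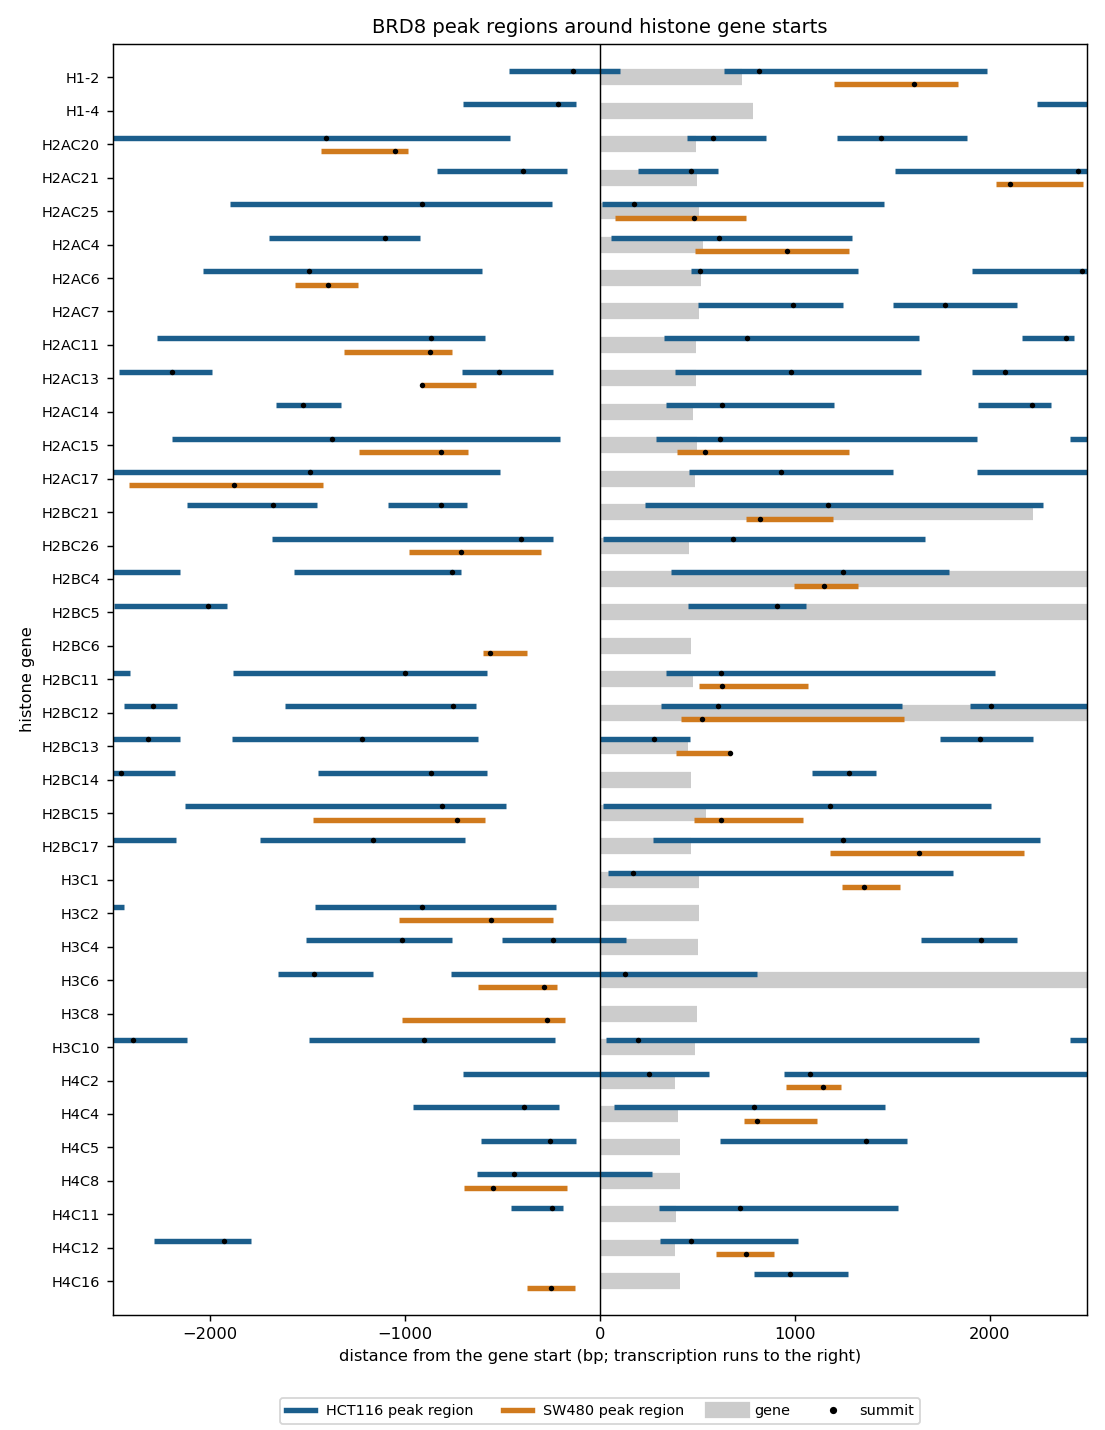
BRD8 peak regions around the start of each bound histone gene with a listed start except H4C15, whose peak lies beyond the axis (horizontal axis, bp, transcription to the right); HCT116 bars lie above SW480 bars in each row, grey marks the gene and dots mark summits. Most HCT116 bars end short of the line at 0, leaving gaps of 254 to 1073 bp at 20 genes.

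**Figure D5:**
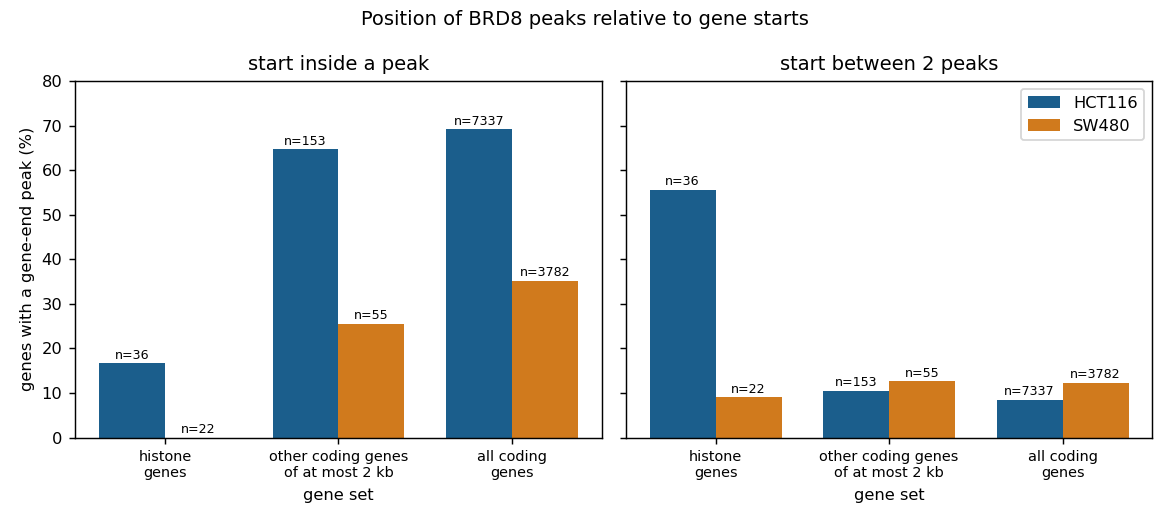
Percentage of bound genes whose start lies inside a peak region (left panel) or between 2 peaks (right panel), for histone genes, other protein-coding genes of at most 2 kb and all protein-coding genes, with HCT116 left of SW480. In HCT116 the histone bars stand at 16.7% and 55.6%, against 69.2% and 8.48% for all protein-coding genes.

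The promoters of histone genes were also poor in G and C. The median over 64 genes was 42.6%, against 62.4% over all protein-coding genes with a promoter in the table. Within the family it was 44.0% at genes bound in both lines, 41.2% at genes bound in HCT116 alone and 46.0% at genes bound in neither.

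The genes with no peak in either line came from every type. On chromosome 1 they were H2BC18, H3C13, H4C14, H3C14, H2AC18, H2AC19 and H3C15. In the largest chromosome 6 cluster they were H1-1, H2BC3, H3C3, H1-6, H2BC7, H2BC8, H2AC8, H1-3, H4C6, H4C7, H3C7, H2BC9 and H2BC10, of which the stretch from H1-3 to H2BC9 is contiguous. The rest were H2AC1, H2BC1, H4C9, H2AC16, H1-5, H3C11 and H4C13. The threshold of 1 kb fell between H3C2 at 911 bp and H4C1 at 1031 bp in HCT116, and between H2AC13 at 912 bp and H2AC20 at 1054 bp in SW480.

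Genes that serve histone supply were mostly bound in HCT116. Of 24 genes of the histone locus body and of histone mRNA transcription and processing, 23 (95.8%) were bound in HCT116 and 11 (45.8%) in SW480, against 44.0% and 22.1% of all protein-coding genes. The same background applies to the lists that follow. NPAT, the organiser of the histone locus body, had a fold of 12.1 in HCT116 and 4.58 in SW480, from a peak that it shares with ATM. SRRT, which links capping to RNA processing, had 11.7 in HCT116 and 3.65 in SW480. The SW480 peak is shared with UFSP1 and ACHE and the HCT116 peak is not, so these folds belong to different summit positions. POU2F1, the octamer-binding factor, had 10.1 in HCT116 and 6.27 in SW480. SLBP had 5.83 in HCT116 and 2.93 in SW480, and HINFP, an activator of H4 genes, 4.49 in HCT116 and 3.33 in SW480. CASP8AP2, LSM10, LSM11 and ZNF473, which act in the histone locus body and in 3′ end processing, had HCT116 peaks at folds from 3.32 to 4.91 and none in SW480. ZNF473 shares an HCT116 peak with VRK3. UPF1, needed for decay of histone mRNA, was bound in neither line.

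Histone genes that are expressed outside S phase were bound at 10 of 11 genes (90.9%) in HCT116 and 4 (36.4%) in SW480. H2AZ2 had a fold of 6.70 in HCT116 and 4.22 in SW480, and H2AZ1 had 6.65 in HCT116 and 4.29 in SW480. CENPA, the centromeric H3, had 4.71 in HCT116 and 3.84 in SW480, and H2AX, a mark of DNA breaks once phosphorylated, 3.72 in HCT116 and 3.38 in SW480. H3-3A and H3-3B, which encode H3.3, had 3.90 and 3.25 in HCT116 and no peak in SW480. None of 12 germline and other histone genes had a peak in either line. Histone chaperone genes numbered 19, with 18 bound in HCT116 and 11 in SW480. They were led by MCM2 at 10.2 in HCT116 and 7.55 in SW480, and MMS22L at 10.1 in HCT116 alone. SUPT16H had 9.15 in HCT116 and 4.32 in SW480, and TONSL 8.07 in HCT116 alone. The MCM2 peak of each line is shared with TPRA1, and TONSL shares an HCT116 peak with VPS28. Within the spans of the clusters lay 3 other protein-coding genes, of which HFE was bound in HCT116, at a fold of 3.56, and none in SW480.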

How the data were processed

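BRD8 ChIP-seq peak lists of HCT116 and SW480 were used, 1 list per ChIP library. The input libraries were not analysed on their own. Per the labels' protocols, cells were fixed for 10 minutes in formaldehyde at 1%, chromatin was cut with micrococcal nuclease, and 2 µg of a polyclonal antibody was used. Libraries used 1 ng of DNA and 150 bp paired reads. Per the submitters' processing notes, Trimmomatic 0.33, Bowtie2 2.4.1, MACS2 and deepTools were used with GRCh38; how reads were filtered is not stated there. The deposited fold is the ratio (ChIP + 1)/(background + 1) at the peak summit. The deposited −log10 p and −log10 q belong to that summit, and the lowest −log10 q of each list corresponds to a q of 0.05. The deposited score only restates that q value as an integer and was not used. The deposited summit offset gave summit positions.

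Peaks outside chromosomes 1 to 22 and X were dropped, which left 22303 in HCT116 and 12874 in SW480, with median summit pileups of 24 and 26 fragments. Pileup and background were solved from fold and p by scanning pileups up to 2999 with a relative tolerance of 0.0001, which succeeded for 99.991% and 99.9767% of peaks. The lists give no read totals. Genes came from the RefSeq table of GRCh38.p14, and strands and starts from its promoter table, which held 64 of the 69 histone genes. A start was called between 2 peaks when no region covered it and regions lay within 1000 bp on both sides. Clusters were split at gaps over 200 kb, and pairs had at most 500 bp between genes. Scripts used Python 3.11.15, pandas 2.3.3 and scipy 1.17.1 and were tested on simulated data. No test was made, since each line has 1 ChIP library. Genes were named by a written rule that took genes bound in both lines, the strongest peaks and genes of 1 line alone. Genes bound in neither line were named by cluster. The members and lists were chosen with earlier results of these data known. Alternatives covered the window, peak threshold, list length, region overlap, nearest gene, 5′ end and near-identical copies. Those for starts, copies and overlapping peaks were chosen after seeing the data.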

Additional observations from a re-analysis of the deposited data

How the results depend on the processing

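The number of bound histone genes was 39 in HCT116, 24 in SW480 and 21 in both lines, from 44 and 18 separate peaks. With the window narrowed to 500 bp, 12 genes (17.4%) were bound in SW480, against 17.0% of all protein-coding genes, and 8 in both lines. With a −log10 q of at least 5, 9 were bound in SW480 and 8 in both lines, and 26 separate peaks remained in HCT116 and 6 in SW480. Each of these alternatives admits fewer peaks by construction. HCT116 genes ranged from 29 with the narrow window to 43 with a window of 2 kb. When each peak counted for its nearest gene alone, 35 genes counted in HCT116 and 18 in SW480. Some alternatives have no share over all protein-coding genes beside them. They are the 2 kb window, the nearest-gene count, the removal of near-identical copies and the altered counts in both lines. Those counts do not show whether the family exceeds the background. The number of HCT116 genes with the start between 2 peaks was 20. It was 8 with a −log10 q of at least 5, 11 with equal numbers of peaks and 10 with peaks sought within 500 bp. The shares were then 29.6%, 39.3% and 27.8%, against 4.27%, 4.66% and 5.21% of all bound protein-coding genes. In SW480 that number was 2, and it was 0 under the first and the last of these settings. Other counts over the whole family stayed within 1.5 times of these, while some counts by histone type did not. At overlapping peaks the median ratio of fold was 1.59, against 1.54 at the highest peaks. The planned comparison of identical proteins was not run; leaving out genes with near-identical promoter windows gave 36 bound genes in HCT116 and 23 in SW480. No paired analysis was possible because each line has 1 ChIP library. Pileups of 14 to 44 fragments limit what these lists can show.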
